A study of Oryza sativa with 12 samples.

Results

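Embryonic axes of rice seeds stored at 40 °C were compared at 4H with axes of seeds stored at 25 °C. The comparison took 6 of the 12 arrays of the study, the 3 arrays labelled 40 °C and 4H and the 3 labelled 25 °C and 4H. Of the 57258 probe sets that were not manufacturer's controls, 17650 lay above a log2 signal of 4 in at least 3 of the 12 arrays and were kept. All seeds were of the cultivar Nipponbare (Oryza sativa) and went through a controlled deterioration treatment, which began with 3 days at 25 °C and 85% relative humidity. Control seeds then stayed at 25 °C and 85% relative humidity, and treated seeds were moved to 40 °C at the same humidity. This storage lasted 14 days by the growth protocol and 15 days by the sample description, and both kinds of seed were afterwards kept for 3 days at 25 °C and 32% relative humidity. The tissue label reads seed and the growth protocol names the embryonic axis. Titles mark each array as 0H or 4H, and the labels do not define these marks. The labels also mention storage at 45 °C, which was not analysed here. Total RNA amounts of 64, 39 and 56 µg were recorded for replicates 1 to 3 at 25 °C and 39, 82 and 66 µg at 40 °C, and 20 µg of biotin-labelled cRNA is stated for each array.

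The embryonic axis carries the root and shoot meristems and is the first part of the seed to grow out. A dry seed holds stored transcripts, and it starts to make and to break down transcripts when it takes up water. Warm and humid storage is used to age seeds quickly, and aged seeds are known for oxidative damage to their lipids, proteins and nucleic acids and for slower growth of the axis.

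Signals were read on the Affymetrix Rice Genome Array as log2 values, so a difference of 1 is a 2-fold change. Across all kept probe sets, arrays of the same temperature at 4H correlated at 0.982 to 0.994 (25 °C) and 0.989 to 0.993 (40 °C), and arrays of different temperature at 0.846 to 0.878; probe sets are not independent replicates. At 4H the 25 °C arrays had 27.1% to 27.7% of all probe sets above log2 4. The 40 °C arrays had 26.3% to 26.5%, so the temperatures did not overlap. Precision is limited by having 3 arrays in each group. Replicate 3 at 25 °C stood apart from its group: its 18S ribosomal RNA control read 6.82 against 11.04 and 11.06, and its hybridization spike-ins 7.41 against 9.22 and 8.84. It was also the 25 °C array nearest to the 40 °C mean in 2748 of 4748 probe sets called over 2-fold (57.9%). The 3′ minus 5′ signal of the Gapdh control was 2.26, 2.32 and 2.44 at 25 °C and 2.79, 2.95 and 2.56 at 40 °C (exact permutation test, two-sided, p = 0.1, the smallest that 3 against 3 arrays can give). The poly-A spike-ins, added to the RNA before labelling, read 3.95, 3.57 and 2.53 at 25 °C and 5.31, 4.19 and 6.17 at 40 °C (exact permutation test, p = 0.1). The same signal of Actin averaged 2.97 and 2.95 (exact permutation test, p = 0.9). Their part in the results was not tested.

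The summed signal of 8 embryo markers, most of it from late embryogenesis and dehydrin transcripts such as Emp1, was 14.1 to 14.3 at 25 °C and 13.9 to 14.1 at 40 °C on the log2 scale. Among them the meristem gene OSH1 was lower at 40 °C, at 5.79 at 25 °C and 3.78 at 40 °C, as was WOX11 at 8.21 and 4.58. VP1 went the other way, at 9.47 and 9.89, and Emp1 read 12.19 and 12.16. The summed signal of 11 endosperm markers was 10.3 to 11.6 and 10.8 to 11.1, so the temperatures overlapped. That of 6 aleurone and scutellum markers was 10.3 to 10.9 and 9.43 to 9.71, lower at 40 °C in every array. The leaf markers RBCS1, CAB2R and LHCP lay below log2 4 on all 12 arrays, and the sum of 6 such markers was 6.13 to 6.48 and 4.85 to 5.10. Of the other 3, OSA15 read 5.79 and 2.92, while RBCS (3.12 and 3.25) and GOS5 (3.12 and 3.11) lay below the limit at 4H. Fewer cells of a type and less RNA per cell cannot be told apart in such samples.

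Storage at 40 °C went with differences in most of the measured transcripts at 4H. By limma 13068 of 17650 probe sets (74.0%) passed an adjusted p of 0.05, 5384 higher (30.5%) and 7684 lower (43.5%) at 40 °C. In 76.3% of the probe sets the 3 arrays of a temperature all lay above the 3 of the other. With 11516 genes, each read by its probe set of highest mean, 76.9% passed, 28.6% higher and 48.4% lower. Counts for gene lists are to be read against these shares. Since so many passed, a second rule also asked for a change over 2-fold: it called 2202 probe sets higher (12.5%) and 2546 lower (14.4%), and among genes 10% and 15.8%. The majority among the changes over 2-fold turned with the scaling, to 2438 higher and 2298 lower after quantile normalization and 2517 and 2115 after centring each array on its median. More than 4-fold changes were found for 494 probe sets up and 399 down, and more than 16-fold changes for 7 up and 24 down. The median difference over all kept probe sets was −0.16 and over genes −0.24, and the median SD within a group was 0.15 at 25 °C and 0.12 at 40 °C. The labels do not say that the replicates came from separate seed lots, so the p-values rest on a spread between arrays that may be technical.

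**Figure D1:**
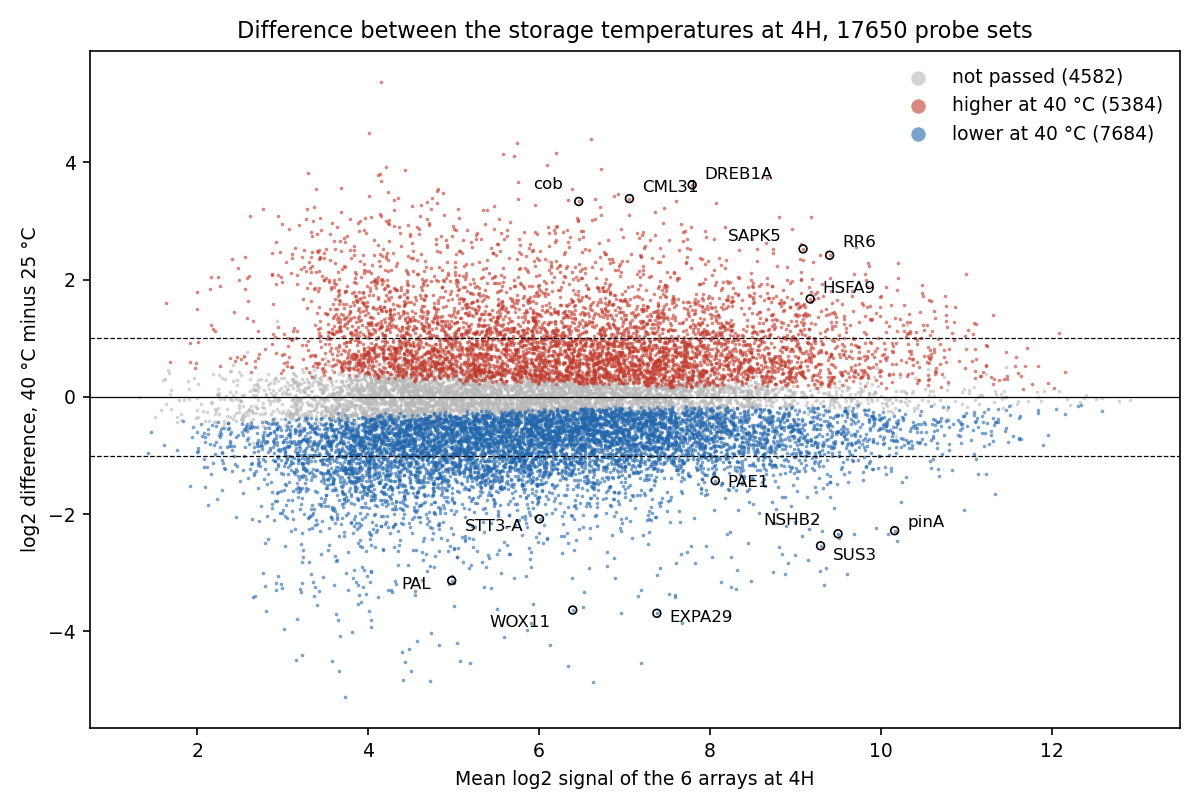
Each of the 17650 kept probe sets is a point, with its mean log2 signal over the 6 arrays at 4H on the horizontal axis and the log2 difference, 40 °C minus 25 °C, on the vertical axis. Red points passed the test as higher at 40 °C (5384), blue points as lower (7684) and grey points did not pass (4582), and the dashed lines mark 2-fold changes. The labelled genes, such as CML31, SAPK5 and SUS3, lie beyond the 2-fold lines in the direction the text gives.

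The filter limit of log2 4 is no measure of background. A gene whose lower group had all 3 arrays under that limit is given a bound, at least the higher mean minus 4, and its p comes from the signals as deposited. Where both means lay below it, only the means are given. Among the probe sets called over 2-fold, the lower group lay wholly below the limit in 531 of the rises and 899 of the falls. Some probe sets, marked _s_at, _x_at or _a_at by the manufacturer, may match related transcripts. Of 849 genes with several called probe sets, 58 had probe sets called in opposite directions.

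The 25 largest rises included DREB1A and CML31. DREB1A, a factor that switches on cold-responsive genes, read 5.72, 5.47 and 6.76 in the 25 °C arrays and 9.78, 9.34 and 9.68 in the 40 °C arrays. CML31, a calmodulin-like protein of calcium signalling, read 5.22, 5.21 and 5.67 and then 8.95, 8.78 and 8.51. In both genes the temperatures lay far apart, and replicate 3 at 25 °C was the highest of its group. DREB1A rose by 3.62 (SE 0.31, adjusted p = 9.29e-08) and CML31 by 3.38 (SE 0.20, adjusted p = 2.96e-09). All 4 measured DREB factors rose over 2-fold, with DREB1B at 2.42 (SE 0.41) and DREB2A at 1.17 as the others besides DREB2B at 2.66. DREB1B also had replicate 3 at 25 °C nearest to the 40 °C arrays, at 8.74 against 7.73 and 7.78.

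WRKY76, a repressor of defence genes in rice, read 5.47, 5.33 and 6.24 at 25 °C and 8.11, 7.75 and 8.21 at 40 °C and rose by 2.34 (SE 0.28, adjusted p = 2.86e-06). All 5 measured WRKY factors rose (median 1.09), among them WRKY24 by 1.89 and WRKY51 by 1.09. The rise of WRKY71 (0.42) did not pass without replicate 3 at 25 °C or with array weights. Of 7 MYB factors 6 rose, 3 of them over 2-fold, and 0 fell (median 0.97, against −0.24 over all genes). LTR1 (also OsMYB4), known from cold tolerance, rose by 1.71, MYB2 by 1.63 and MPH1 by 1.56. GAM1, the gibberellin-responsive MYB factor of germinating cereal grain, rose by 0.97, and MYBS3, a repressor of sugar-starved alpha-amylase expression, by 0.76. Of 4 NAC factors 3 rose. NAC067 read 9.67, 9.78 and 9.62 at 25 °C and 10.94, 10.82 and 10.98 at 40 °C. Its difference did not pass (limma, adjusted p = 0.0611), although the temperatures did not overlap. Its SE of 0.56 pools the spread of all 4 groups, and its 25 °C arrays at 0H had an SD of 1.80. After median centring all 4 NAC factors passed as rises.

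SAP17, an A20/AN1 zinc finger protein of the stress-associated family, read 6.83, 6.87 and 7.73 at 25 °C and 10.04, 9.72 and 9.76 at 40 °C. It rose by 2.70 (SE 0.28), and 7 of the 11 family members measured rose while 2 fell, SAP3 by 0.77 and SAP4 by 0.30. NPR3, a relative of the salicylic acid receptor NPR1, read 5.20, 5.28 and 5.31 and then 7.42, 7.20 and 7.35. OsNPR4 of the same family read 4.15, 4.17 and 4.61 and then 6.21, 6.25 and 6.10. In both the temperatures were clearly separated, and they rose by 2.06 (SE 0.13) and 1.88 (SE 0.16). SGR, the stay-green protein that takes part in chlorophyll breakdown, rose by 1.89 (SE 0.10).

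Calcium and kinase signalling genes moved in both directions. CPK4, a calcium-dependent protein kinase, read 4.73, 5.14 and 5.36 at 25 °C and 7.62, 7.41 and 7.59 at 40 °C. ACA7, a calcium pump, read 4.34, 4.88 and 5.18 and then 7.20, 6.91 and 7.37. NEK1, a kinase of the NIMA family that is linked to microtubules and cell division, read 5.92, 5.78 and 5.74 and then 8.11, 8.25 and 7.87. The arrays of each temperature did not overlap with those of the other in these genes. The rises were 2.47 (SE 0.18), 2.36 (SE 0.22) and 2.26 (SE 0.17), and NEK1 was near log2 2 at 0H at both temperatures. Of 40 calcium-dependent and CBL-interacting kinases 20 rose, 6 of them over 2-fold, and 10 fell, 5 of them over 2-fold (median 0.22). CIPK1 rose by 1.78 and CIPK23, which activates potassium and nitrate transport in Arabidopsis, by 1.35, while CIPK3 fell by at least 1.27 and CIPK32 by 1.24.

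Among 17 calmodulins and calmodulin-like proteins 9 rose and 5 fell (median 0.55). The rises were in calmodulin-like genes such as CML14 (2.04), CML15 (1.98) and CML10 (1.67). The falls included CAM1, CAM2 and CAM3, which encode calmodulin itself, by 0.70, 0.69 and 1.02. The 14 MAP kinase genes gave 8 rises and 3 falls (median 0.55), with MPK7 up by 1.62, MPK6 up by 0.69 and MPK4 down by 1.14. The WNK and NEK kinases split, with 3 of 8 up and 4 down: WNK5 rose by 1.16, and MEK1 fell by 1.81. The 14-3-3 proteins, adaptors that bind phosphorylated proteins, gave 5 falls and 0 rises among 7 genes (median −0.58), led by GF14F at −0.81.

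**Figure D2:**
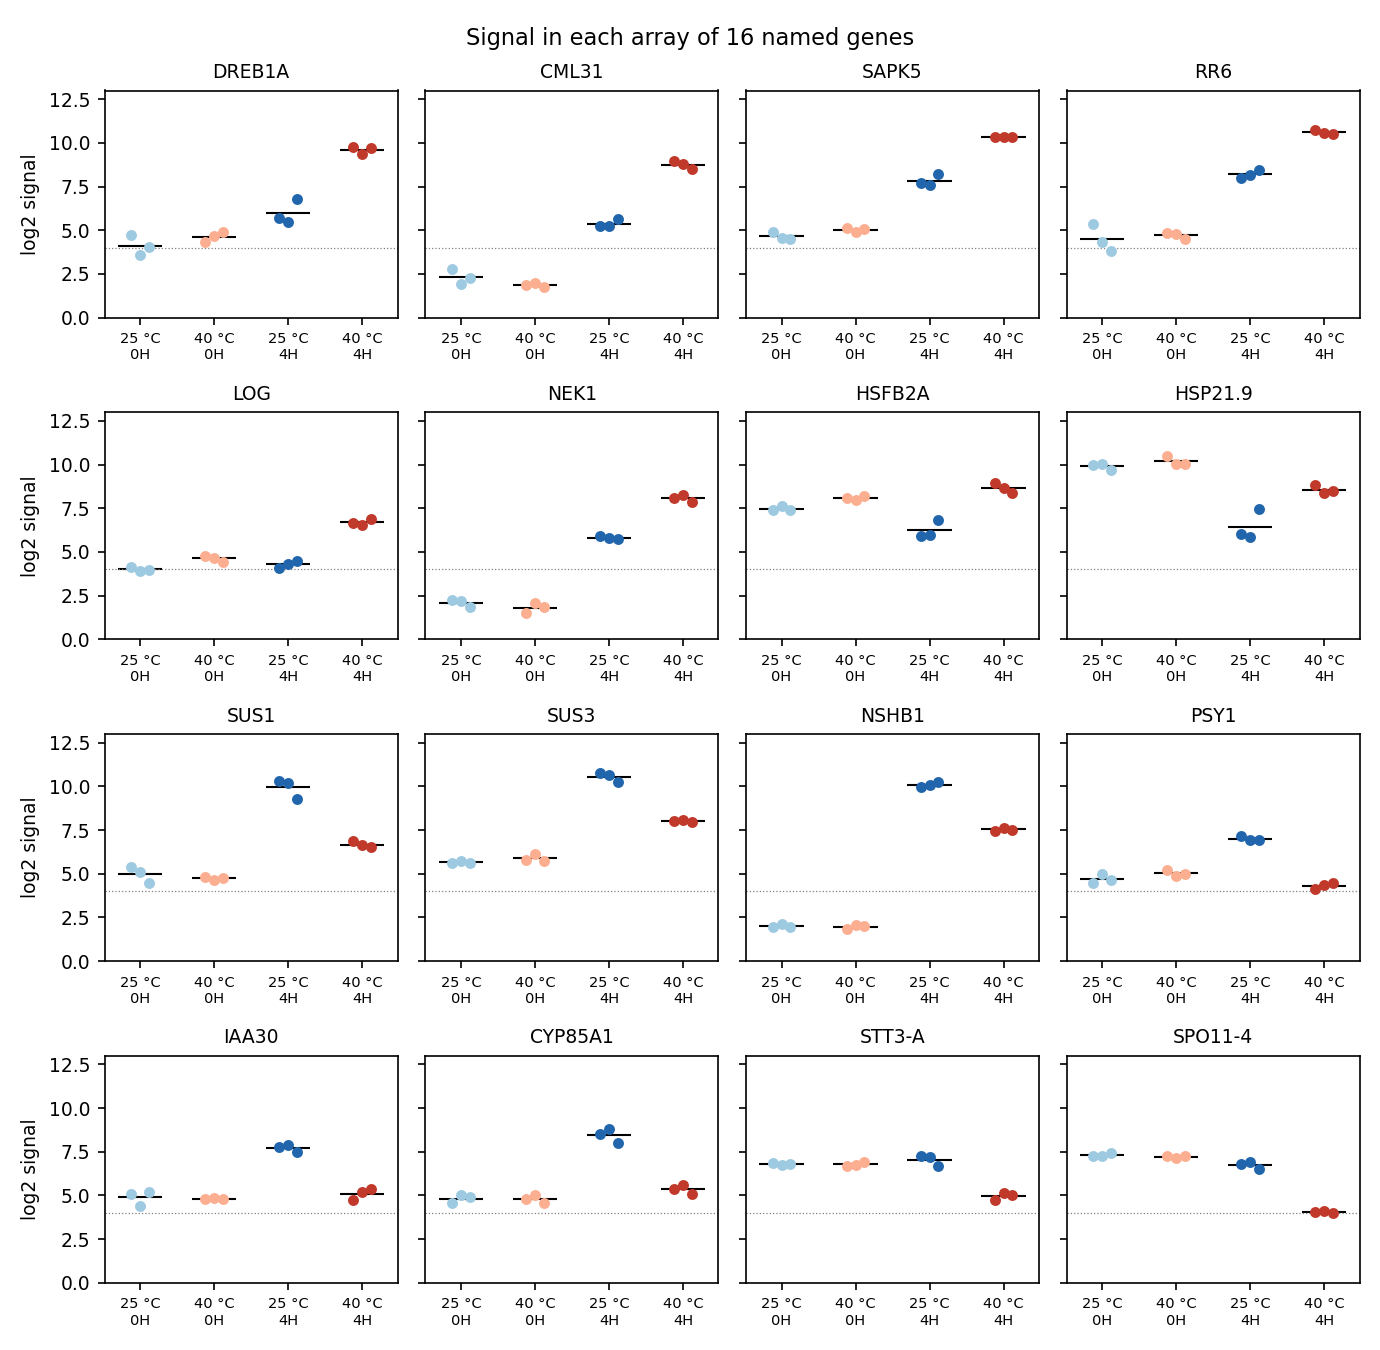
Each panel shows the log2 signal of a gene in all 12 arrays, with a dot for each array, a line at the mean of the 3 replicates and a dotted line at log2 4. In the first 8 panels all 40 °C arrays lie above the 25 °C arrays at 4H, and in the last 8 panels all lie below. At 0H the means of the temperatures differ by at most 0.61 in each of the 16 genes.

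Abscisic acid holds back germination, and its receptors, phosphatases and SnRK2 kinases form a short chain. SAPK5, an SnRK2 kinase, read 7.69, 7.60 and 8.19 at 25 °C and 10.35, 10.36 and 10.34 at 40 °C. The receptor PYL11 read 8.20, 8.34 and 8.59 and then 10.01, 10.01 and 10.13. The kinase gene sapk2 read 7.38, 7.37 and 7.45 and then 8.33, 8.47 and 8.51. All 3 were separated by more than the spread of either group. They rose by 2.52 (SE 0.14, adjusted p = 1.68e-09), 1.67 (SE 0.09) and 1.03 (SE 0.07). Of the 18 genes of abscisic acid synthesis and signalling 9 rose and 5 fell, against 28.6% and 48.4% of all genes, and 3 rises and 0 falls were over 2-fold (median 0.25). The falls were small: PP2C53, a phosphatase that blocks the kinases, fell by 0.66, ABA1, an early enzyme of abscisic acid synthesis, by 0.49, and SAPK3, SAPK8 and SAPK1 by 0.40, 0.28 and 0.19. Those of SAPK1 and ABA1 did not pass in several of the alternative fits.

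Protein phosphatases 2C, a large family of which some members block SnRK2 kinases, split almost evenly: 19 of 50 rose and 22 fell, and after median centring 22 rose and 18 fell. Changes over 2-fold were mostly rises, 14 against 5. OsPP2C36 read 3.78, 4.08 and 3.80 at 25 °C and 6.86, 6.43 and 6.28 at 40 °C, and OsPP2C34 read 7.91, 7.95 and 8.32 and then 10.06, 10.06 and 10.09. Both were clearly separated, with rises of 2.64 (SE 0.16) and 2.02 (SE 0.13). OsPP2C29 rose by 1.85 and OsPP2C54 by 1.67, and OsPP2C51 fell by 1.88.

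Cytokinin genes were mostly higher at 40 °C. RR6, a type-A response regulator that is induced by cytokinin and damps its signal, read 7.98, 8.15 and 8.45 at 25 °C and 10.77, 10.57 and 10.48 at 40 °C. LOG, the enzyme that frees the active hormone, read 4.08, 4.32 and 4.46 and then 6.66, 6.57 and 6.87. The temperatures did not overlap in either gene, and both rose by 2.41 (SE 0.27 for RR6 and 0.14 for LOG). The receptors HK4 and HK3 rose by 1.13 and 0.98. The cytokinin-degrading oxidase CKX11 went the other way, from a mean of 5.17 to 2.63, a fall of at least 1.17. Of the 11 genes measured 8 rose and 3 fell (median 0.64). The fall of LOGL1 (0.43) did not pass in several alternatives, without replicate 3 at 25 °C among them.

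Jasmonate genes rose in 11 of 21 cases, 6 over 2-fold, and fell in 7, 1 of them over 2-fold (median 0.44). GH3.5, which makes the active jasmonate conjugate, read 6.92, 7.37 and 6.98 at 25 °C and 8.67, 8.50 and 8.53 at 40 °C. JAZ6, a repressor of jasmonate responses that is itself induced by the hormone, read 9.55, 9.66 and 9.99 and then 11.13, 11.10 and 11.31. Each of these was higher in every 40 °C array, by 1.48 (SE 0.14) and 1.45 (SE 0.18). JAZ10 rose by 1.16 and the reductase OPR13 by 1.03. Other repressors fell, JAZ7 by 1.38, JAZ3 by 0.98 and JAZ1 by 0.71, as did the receptor COI1 by 0.86 and the allene oxide cyclase gene aoc by 0.50.

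In brassinosteroid synthesis and signalling 7 of 9 genes fell and 2 rose (median −0.63). CYP85A1, a late enzyme of synthesis, read 8.54, 8.78 and 8.01 at 25 °C and 5.38, 5.57 and 5.09 at 40 °C. GSK2, a kinase that blocks the signal, read 6.30, 6.30 and 6.08 and then 3.72, 3.71 and 3.63, below the filter limit. Both genes had all 40 °C arrays below the 25 °C arrays, and the falls were 3.09 (SE 0.19) and at least 2.23. The enzyme CPD2 fell by 1.30 and the co-receptor BAK1 by 0.63, while the transcription factors BZR3 and BZR2 rose by 1.25 and 0.56. For gibberellin, which promotes germination, 5 of 8 genes fell, the receptor gid1 by 1.21 and the DELLA repressor SLR1 by 0.90, and 2 rose, the biosynthetic GA20OX3 by 0.74 and GAM1. With a filter at log2 6 gibberellin genes split as 2 up and 2 down of 5 (median 0.16).

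Auxin genes fell in 18 of 29 response genes and rose in 6 (median −0.41), with 8 falls and 1 rise over 2-fold. IAA30, an Aux/IAA repressor that auxin induces, read 7.78, 7.89 and 7.48 at 25 °C and 4.74, 5.18 and 5.38 at 40 °C, and fell by 2.62 (SE 0.20). The response factors ARF15 and ARF18 fell by 1.78 and 1.17 and the repressors IAA3 and IAA5 by 1.74 and 1.19, while IAA20, with a 25 °C mean of 3.69, rose by 1.37. Among 8 genes of synthesis, transport and conjugation 6 fell (median −1.28), 5 of them over 2-fold. The conjugating enzymes GH3.2 and GH3-8 fell by 2.06 and 1.33, and the hydrolases IAR and ILL5, which free auxin from conjugates, by 1.34 and 1.24. Of the 3 strigolactone and karrikin genes the receptor D14 fell by 1.95, and the repressors D53-L and SMAX1L rose by 1.45 and 1.12. The 6 ethylene genes split, with ERS1 and EIL1A up by 0.59 and 0.25 and EIN2 and ETR4 down by 0.76 and 0.61.

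Heat stress genes were mostly higher at 40 °C. Of 19 heat stress transcription factors 12 rose, 9 over 2-fold, and 3 fell (median 0.97). HSFB2A, a class B factor that lacks an activation domain, read 5.93, 5.95 and 6.85 at 25 °C and 8.94, 8.64 and 8.38 at 40 °C. HSFA4B read 6.38, 6.34 and 6.92 and then 9.02, 8.78 and 8.97. Replicate 3 was again the highest 25 °C array in both, without reaching the 40 °C arrays, and the rises were 2.41 (SE 0.20) and 2.38 (SE 0.14). HSFA9, a seed factor that drives small heat shock genes in sunflower, rose by 1.67, and HSFB2B rose by 1.72. HSFA2C rose by 2.84 with the probe set used here, while a second probe set of that gene fell by 1.70. The falls were HSFB4B (1.15), HSFC2A (0.59) and HSFA6B (0.25).

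Small heat shock proteins, which hold unfolding proteins in solution, rose in 16 of 18 genes, 11 over 2-fold, and fell in 2 (median 1.18). HSP21.9 read 6.02, 5.83 and 7.46 at 25 °C and 8.81, 8.38 and 8.48 at 40 °C. HSP17.8 read 2.98, 3.76 and 5.93 and then 7.08, 6.16 and 6.43, so replicate 3 at 25 °C lay just below the lowest 40 °C array. They rose by 2.12 (SE 0.31) and 2.33 (SE 0.53). These transcripts were stored at high levels: HSP21.9 had a mean near 10 in both 0H groups, and the list's median level was 10.54 and 10.72 at 0H and 8.96 and 10.11 at 4H, each at 25 °C and 40 °C. HSP18.8 fell by 1.67, and the small fall of HSP16.9A (0.15) did not pass under several alternatives.

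The 11 large chaperones gave 6 rises and 3 falls (median 0.24). The Clp family members hsp101, CLPB-C and CLPB-M, which pull apart protein aggregates, were among the rises. The gene hsp101, the cytosolic member, read 7.36, 7.28 and 8.24 at 25 °C and 9.44, 9.30 and 9.43 at 40 °C, and 10.51 to 10.78 in the 0H arrays. It rose by 1.76 (SE 0.18), and CLPD1, CLPB-C and CLPB-M, of the plastid and mitochondrion, rose by 1.87, 1.25 and 1.15. DJA6, a DnaJ co-chaperone, fell by 1.70, and CLPC2 and HSP81-2 fell by 0.88 and 0.56.

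Protein folding and sugar transfer in the endoplasmic reticulum stood on the other side. Of 29 genes 23 fell and 2 rose (median −0.88), where 48.4% and 28.6% of all genes did, and 13 of the falls were over 2-fold. STT3-A, the catalytic subunit of the oligosaccharyltransferase that attaches sugar chains to new proteins, read 7.25, 7.20 and 6.68 at 25 °C and 4.73, 5.15 and 5.01 at 40 °C. The subunit OST1B read 8.26, 8.38 and 8.41 and then 7.01, 6.93 and 7.03. DAD-1, another subunit, read 8.71, 8.69 and 8.73 and then 7.63, 7.67 and 7.69. None of these overlapped, and the falls were 2.08 (SE 0.14), 1.36 (SE 0.06) and 1.05 (SE 0.06). OST48 fell by 1.59, and the disulfide isomerases PDIL5-1 and PDIL2-2 fell by 1.26 and 0.99.

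The exceptions included a sensor of unfolded proteins in this compartment. IRE1, which senses them and splices a transcription factor's message, read 7.22, 7.15 and 7.18 at 25 °C and 8.45, 8.48 and 8.35 at 40 °C. BZIP50, the factor whose message it splices, read 8.61, 8.62 and 9.02 and then 10.32, 10.34 and 10.34. BZIP60, another bZIP factor, read 7.42, 7.40 and 7.82 and then 9.37, 9.13 and 9.11. In all 3 the 40 °C arrays were higher throughout, with rises of 1.24 (SE 0.11), 1.58 (SE 0.10) and 1.65 (SE 0.10). DJC27, a DnaJ protein, rose by 0.75. Of the 13 bZIP and TGA factors as a whole 5 rose and 4 fell (median −0.19), and TGAL1 fell by at least 2.18.

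**Figure D3:**
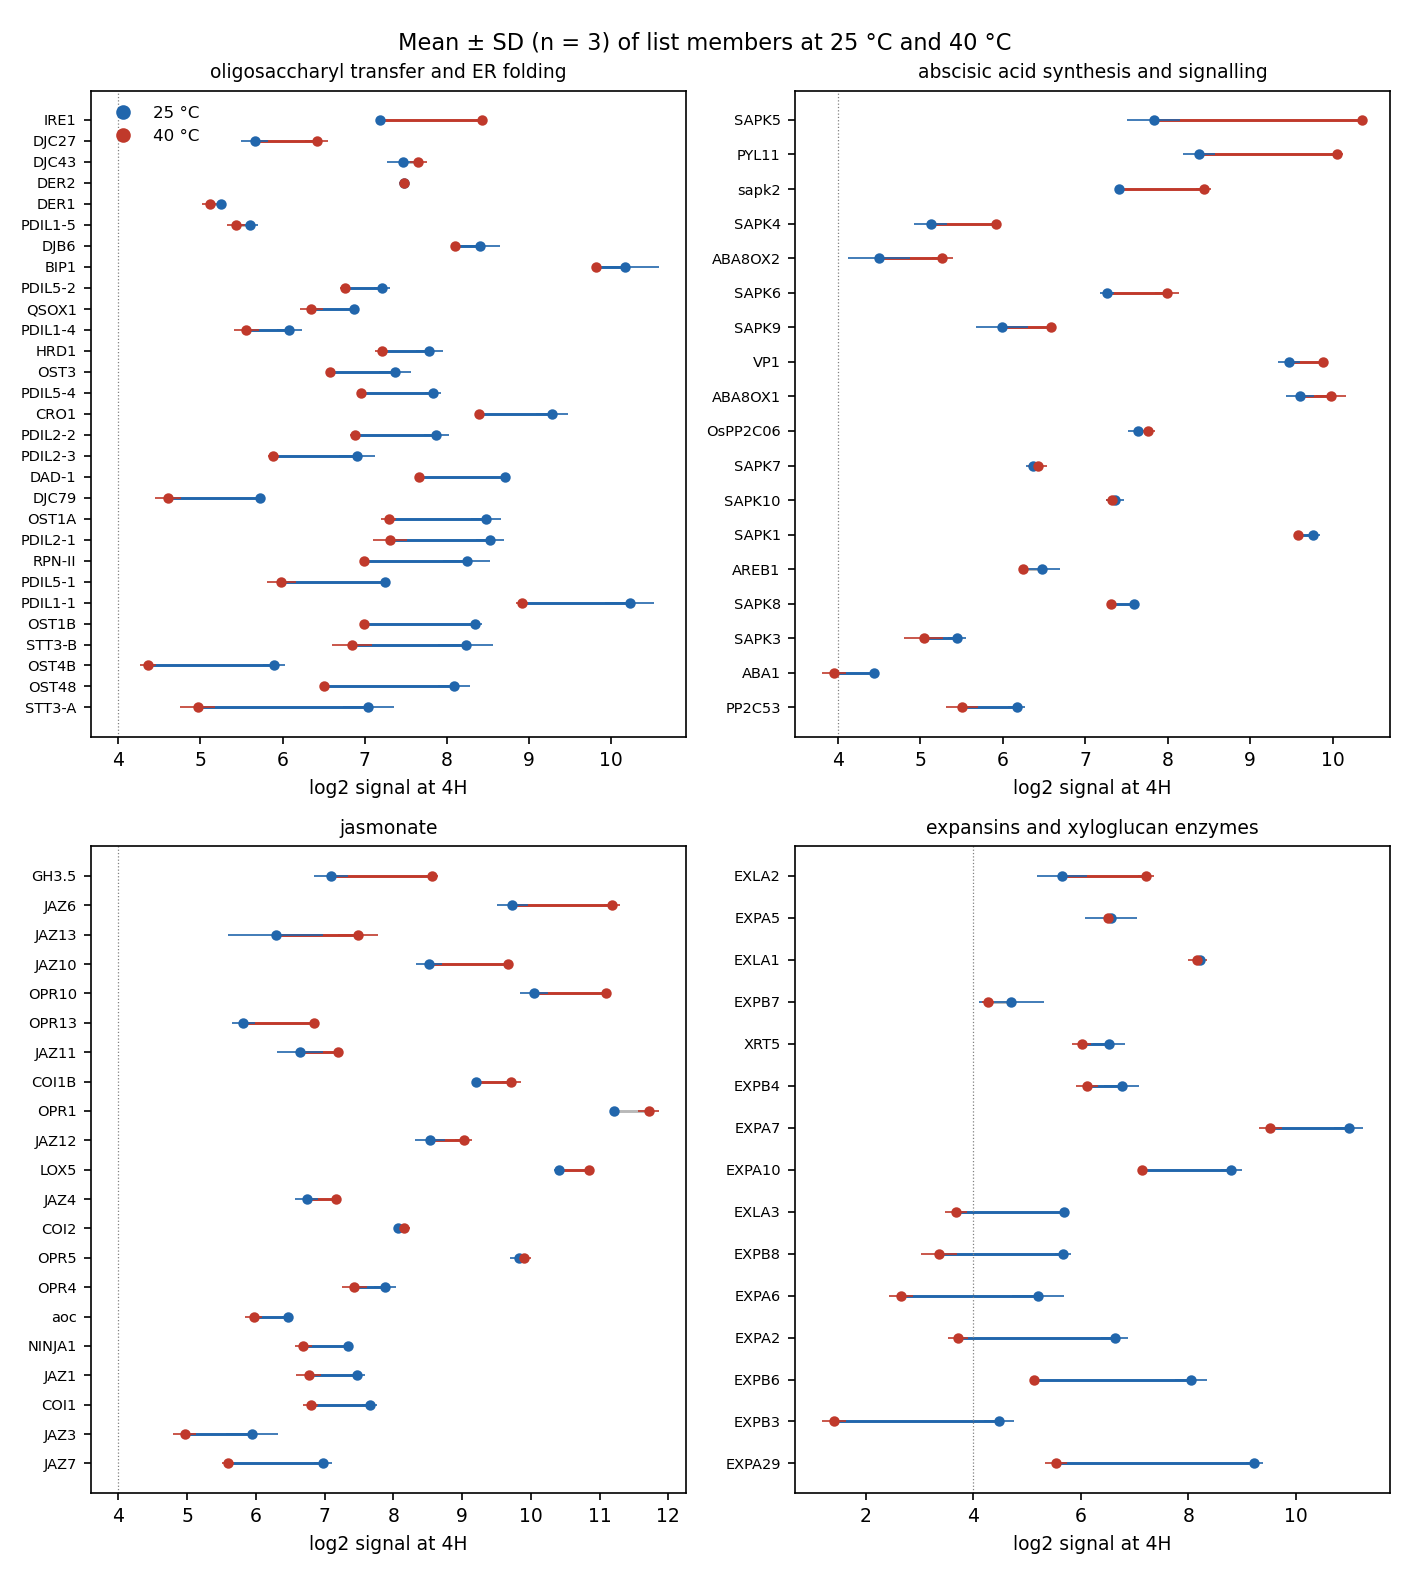
Each panel lists the measured genes of a group in order of their difference, with the mean log2 signal of the 3 arrays at 25 °C (blue) and 40 °C (red) at 4H. Thin bars are the SD over the 3 arrays. The connecting line is red where the gene passed as higher at 40 °C, blue where it passed as lower and grey where it did not pass. Genes of the endoplasmic reticulum and the expansins lie mostly to the left at 40 °C, and SAPK5, PYL11, GH3.5 and JAZ6 lie to the right.

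Genes of protein synthesis and turnover fell, most of them by less than 2-fold. Of 22 ribosomal proteins 21 fell and 0 rose (median −0.72), and of 12 translation factors 9 fell and 1 rose (median −0.58), with the helicase eIF-4A-1 down by 0.91 and the elongation factor EF-1-beta by 0.90. All 16 proteasome subunits fell (median −0.59), PAE1 by 1.43 and PBC1 by 0.97, but only 3 of them over 2-fold. The mitochondrial list, which holds alternative oxidase, succinate dehydrogenase, cytochrome oxidase and channel proteins, had 12 of 15 genes lower (median −0.71). The outer membrane channels VDAC5 and VDAC6 fell by 1.43 and 0.92, and the succinate dehydrogenase gene SDH3-1 by 1.17. AOX1, the alternative oxidase that respiratory stress induces, rose by 0.85 (SE 0.18), from 5.07, 4.83 and 5.04 to 5.93, 5.79 and 5.77.

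Sucrose synthases were among the largest falls. SUS3, which cleaves sucrose, read 10.76, 10.67 and 10.26 at 25 °C and 8.05, 8.08 and 7.95 at 40 °C. SUS1, another, read 10.34, 10.20 and 9.28 and then 6.86, 6.63 and 6.50. SWEET1A, of a family of sugar carriers, read 7.56, 7.63 and 7.59 and then 5.25, 5.31 and 5.46. All were well separated, although replicate 3 was the lowest 25 °C array for both sucrose synthases. The falls were 2.54 (SE 0.12), 3.27 (SE 0.24) and 2.26 (SE 0.10), and Sus2 fell by 3.42 (SE 0.24) on a probe set that may match related transcripts. Neutral invertases, another route of sucrose cleavage, went the other way, with NIN1 up by 0.68 and NIN3 up by 0.33. The rise of NIN3 was lost in several alternatives, without replicate 3 at 25 °C among them. In the whole list of 19 genes 10 fell and 3 rose (median −0.46), a share of falls near the 48.4% over all genes.

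Of 18 glycolysis and fermentation genes 14 fell, 7 over 2-fold, and 1 rose (median −0.87). GAPC1, a glyceraldehyde-3-phosphate dehydrogenase, fell by 1.34, the pyruvate decarboxylase PDC2 by 0.75 and the triose phosphate isomerase TPI by 0.96. The rise, of HXK5 (0.24), did not pass in most of the alternative fits. NSHB1, a nonsymbiotic hemoglobin that scavenges nitric oxide under low oxygen, read 9.96, 10.08 and 10.23 at 25 °C and 7.47, 7.62 and 7.52 at 40 °C. NSHB2 read 10.65, 10.69 and 10.66 and then 8.33, 8.49 and 8.17. Both fell, by 2.55 (SE 0.11) and 2.33 (SE 0.39), and all their 0H arrays lay below log2 4. ACLA-2, a subunit of ATP citrate lyase, which makes acetyl-CoA for lipids in the cytosol, read 7.66, 7.80 and 7.30 and then a mean of 5.10 at 40 °C and fell by 2.49 (SE 0.12).

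Starch genes fell in 7 of 14 cases, near the 48.4% over all genes, and rose in 2 (median −0.34). The alpha-amylases AMY3E and AMY1A, which break starch down and are among the markers of aleurone and scutellum summed above, fell by 1.27 and 0.96, and AGPS2, a subunit of the enzyme that feeds starch synthesis, fell by 1.29. GBSS1, which makes amylose and is an endosperm marker, rose by 0.76 and did not pass without replicate 1 at 25 °C. The trehalose phosphatase TPP1 fell by 1.39 and TPP7 rose by 0.82.

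Cell wall loosening genes had the lowest median of the lists drawn, −1.65. Expansins, which loosen walls so that cells can stretch, and xyloglucan enzymes fell in 11 of 15 cases, 9 over 2-fold, and rose in 1. EXPB6 read 8.17, 8.27 and 7.70 at 25 °C and 5.12, 5.13 and 5.12 at 40 °C. EXPA2 read 6.86, 6.68 and 6.36 and then 3.56, 3.93 and 3.67, below the filter limit. The 40 °C arrays of each gene lay within a narrow band far under the 25 °C arrays, and the falls were 2.92 (SE 0.16) and at least 2.63. EXPA29 fell by 3.69 (SE 0.11) and EXPA10 by 1.65, and the expansin-like EXLA2 rose by 1.56.

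Cellulose and related synthases gave 7 falls, near the 48.4% over all genes, and 3 rises among 15 genes (median −0.44, and 0.11 with a filter at log2 6). CESA5, a subunit of the synthase of the primary wall, read 8.95, 8.87 and 9.12 at 25 °C and 10.07, 9.94 and 10.11 at 40 °C and was among the rises, at 1.06 (SE 0.08). CSLC7 and CSLD2 rose by 1.13 and 0.78, and CSLE1 and CSLH1 fell by 1.13 and 1.04. Xylan genes split evenly, 5 up and 5 down of 15, with RGP3 and RCN11 down by 1.91 and 1.40 and XOAT7 and IRX14 up by 1.15 and 0.71. Among endoglucanases and mannanases MAN6 fell by 1.21, and GLU10 rose by at least 1.06. The small GTPase rgp2, of a family that directs vesicle traffic, read 7.85, 7.79 and 7.70 and then 5.31, 5.72 and 5.73, a fall of 2.19 (SE 0.12).

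Of 29 tubulin, actin and actin-binding genes 18 fell and 4 rose (median −0.43). The actin ACT3 fell by 1.61, the beta-tubulin TUB5 by 1.63 and the tubulin gene TID1 by 1.13, while TUB7 rose by 0.80. The formin FH16, of a family that starts actin filaments, read 5.70, 5.71 and 6.05 at 25 °C and 8.65, 8.37 and 8.57 at 40 °C and rose by 2.71 (SE 0.16), and 4 of 6 formins rose. Kinesins, motors that run on microtubules, fell in 7 of 13 cases and rose in 4, near the 48.4% and 28.6% over all genes. KIN10C rose by at least 1.60, and KIN5A, a spindle motor, fell by at least 0.74.

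Cell cycle genes moved in both directions. Of 29 cyclins, kinases and inhibitors 14 were lower, near the 48.4% over all genes, and 11 higher (median −0.14). CDKA-1, the kinase that drives the main cell cycle transitions, read 6.35, 6.10 and 6.11 at 25 °C and 5.01, 4.90 and 4.84 at 40 °C. CDKG-1 read 8.12, 8.34 and 8.25 and then 9.43, 9.45 and 9.37. The temperatures were separate in both, with a fall of 1.27 (SE 0.11) and a rise of 1.18 (SE 0.08). CYCD4-1 fell by 1.68, CycC1;1 by 1.27, and CYCD5-3 and the retinoblastoma relative RBR2, which holds back entry into replication, rose by 1.17 and 1.13. DNA replication genes fell in 11 of 19 cases and rose in 3 (median −0.40): ORC2 of the origin complex fell by 0.93 and the clamp loader subunit RFC4 by 0.87, while the single-strand binding RPA1A and RPA1C rose by 0.82 and 0.53.

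DNA damage and repair genes fell in 13 of 19 cases, 5 over 2-fold, and rose in 1 (median −0.54). SPO11-4, of the family that cuts DNA in meiosis, read 6.79, 6.92 and 6.54 at 25 °C and 4.05, 4.10 and 4.01 at 40 °C. KU80, which binds broken ends for rejoining, fell by 0.98, and NBS1, part of a complex that senses double-strand breaks, by at least 0.71. SPO11-4 fell by 2.69 (SE 0.10) and had 0H signals of 7.15 to 7.45, the same band at both temperatures. The base excision repair scaffold xrcc1 fell by at least 0.69 and the photolyase relative CRYD by at least 1.18. MSH5 rose by 0.66, and it is known from meiotic crossing over.

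WOX11, YAB4 and OSH1 were among the transcription factors of development that fell. WOX11, a homeobox factor of crown root growth, read 8.23, 8.25 and 8.16 at 25 °C and 4.73, 4.56 and 4.45 at 40 °C. YAB4, a YABBY factor, read 6.26, 6.59 and 5.77 and then 3.01, 2.98 and 2.70. OSH1, a KNOX factor of the shoot meristem, read 5.82, 6.08 and 5.46 and then 3.84, 3.85 and 3.67. The 40 °C arrays of YAB4 and OSH1 all lay below the filter limit, and the falls were 3.63 (SE 0.10), at least 2.21 and at least 1.79. Of 15 YABBY, GRF and TCP factors 12 fell, 5 over 2-fold, and 1 rose (median −0.82), with the growth-regulating factors GRF6 and GRF1 down by 1.53 and 0.82. Homeobox factors as a whole gave 11 falls and 6 rises among 29, no higher a share of falls than over all genes, and their median of −0.11 was 0.05 without replicate 2 at 25 °C. HOX6 fell by 2.19, and ZHD1 and HOX10 rose by 0.73 and 0.58.

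**Figure D4:**
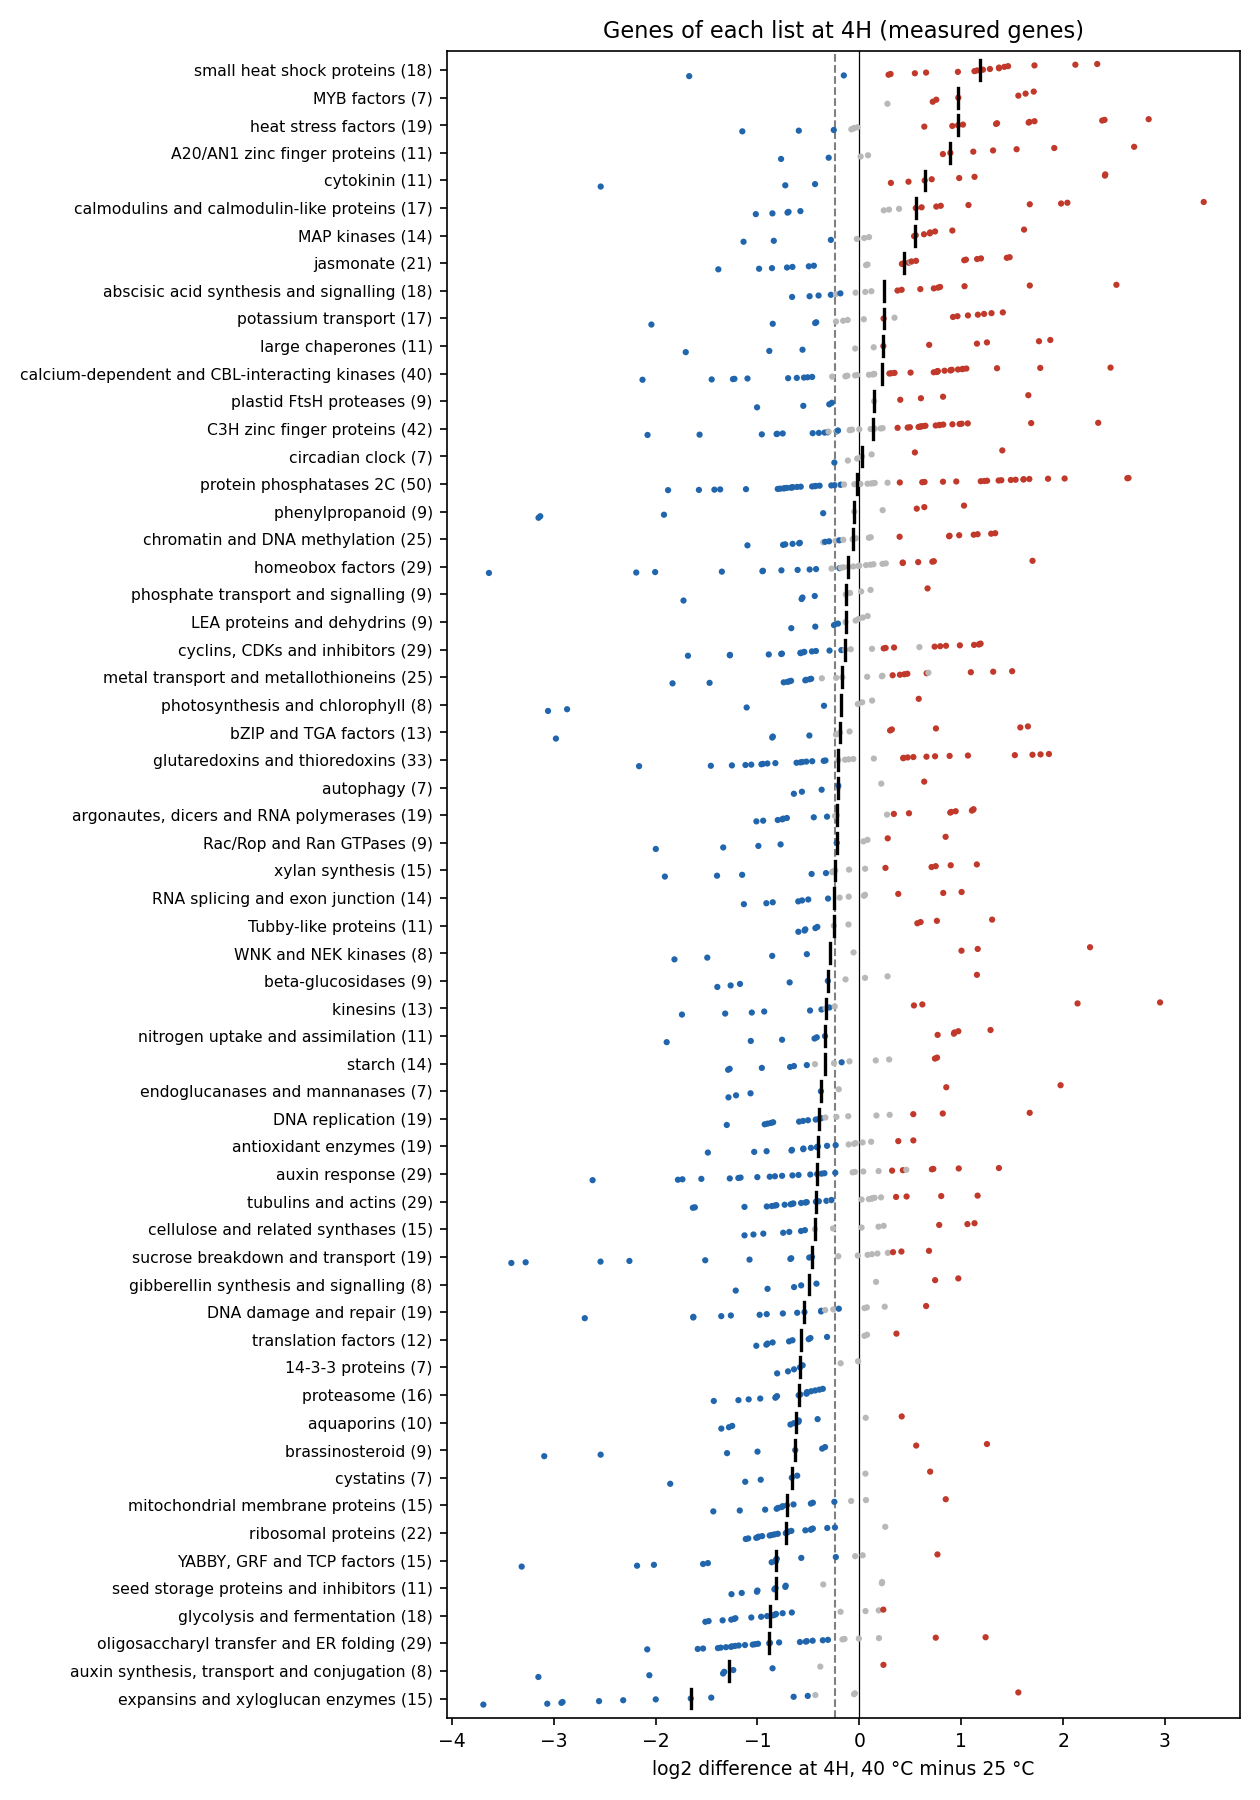
Each line is a gene list with at least 7 measured genes (number in brackets), each dot a gene at its log2 difference at 4H, 40 °C minus 25 °C. Red and blue dots passed the test as higher or lower and grey dots did not, the black bar is the median of the list, and the dashed grey line is the median over all genes (−0.24). The bars run from −1.65 for expansins and xyloglucan enzymes to 1.18 for small heat shock proteins. The list labelled plastid FtsH proteases holds FtsH genes whatever their compartment.

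PAL, PSY1 and CHLP were among the 25 largest falls. PAL, the first enzyme of the phenylpropanoid pathway to lignin, read 6.47, 6.78 and 6.39 at 25 °C and 3.74, 2.98 and 3.52 at 40 °C. PSY1, the first committed enzyme of carotenoid synthesis, read 7.15, 6.93 and 6.93 and then 4.14, 4.33 and 4.49. CHLP, the reductase that makes the side chain of chlorophyll and tocopherol, read 6.71, 6.65 and 6.17 and then 3.45, 3.45 and 3.46. None overlapped, and they fell by at least 2.54, by 2.68 (SE 0.15) and by at least 2.51. In the phenylpropanoid list 4 of 9 genes fell and 3 rose with a median of −0.05, which turned to 0.04 with 3 falls and 3 rises after median centring. CAD1, an enzyme of lignin precursors, fell by 1.92, and the ligase Os4CL5 rose by 1.03.

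Defence proteins were lower in all 6 chitinase and pathogenesis-related genes measured (median −1.44). The chitinase Chib3H-a read 7.17, 7.27 and 6.13 at 25 °C and 4.51, 3.60 and 4.40 at 40 °C, and PBZ1, a pathogenesis-related protein, read 8.39, 8.63 and 8.18 and then 6.19, 6.26 and 5.68. ML, a lectin also named salT, read 10.40, 10.52 and 10.25 and then 7.63, 7.19 and 7.28. The falls were 2.69 (SE 0.29), 2.36 (SE 0.28) and 3.02 (SE 0.15), and the temperatures did not overlap in any of them. Cystatins, inhibitors of cysteine proteases, fell in 5 of 7 cases, OC-X by 1.86, and gKOCIII rose by 0.70. The gene pinA read 11.29, 11.48 and 11.14 and then 9.05, 9.09 and 8.92 and fell by 2.28 (SE 0.10), and GER4, a germin-like protein, fell by 2.01. The transporter ABCG37 rose instead, from 5.02, 5.23 and 4.99 to 7.69, 7.65 and 7.56, by 2.55 (SE 0.11).

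Redox genes were divided. Antioxidant enzymes fell in 12 of 19 cases and rose in 2 (median −0.41): the peroxidase APX6 fell by 1.49 and the catalases CAT-A and CAT-B by 1.03 and 0.67, while the reductases MDAR2 and GR rose by 0.53 and 0.38. The repair enzymes of oxidised methionine, methionine sulfoxide reductases, fell in all 6 genes, MSRB1 from 8.02, 7.94 and 8.01 to 6.29, 6.46 and 6.46. Glutaredoxins and thioredoxins gave 12 rises and 16 falls among 33 genes (median −0.21), with 5 of each over 2-fold. Their share of falls was near the 48.4% over all genes. GRXS5, a glutaredoxin, read 9.40, 9.47 and 9.89 and then 11.45, 11.30 and 11.35, a rise of 1.78 (SE 0.22). GRXS3, GRXC7 and OsTrx18 rose by 1.86, 1.70 and 1.53, and OsTDX and GRXC8 fell by 1.46 and 1.25. Glutathione transferases rose in 4 of 6 cases, GSTU6 by 1.09, and fell in 1.

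Aquaporins, the water channels of the plasma membrane and the tonoplast, gave 8 falls and 1 rise among 10 genes (median −0.62). PIP2-1 read 9.25, 9.06 and 8.93 at 25 °C and 7.81, 7.69 and 7.67 at 40 °C, TIP2-2 fell by 1.28 and PIP1-1 by 1.25. PIP2-1 fell by 1.35 (SE 0.08) with no overlap, and the small rise of the tonoplast channel TIP3-2 (0.42) did not pass without replicate 1 at 25 °C. Potassium transport went the other way, with 8 of 17 genes up, 5 over 2-fold, and 4 down (median 0.24). HAK14 and HAK12, counted as over 2-fold, had all 25 °C arrays under the filter limit and rose by at least 0.22 and 0.37. HAK11 and HAK16 rose by 1.30 and 1.22, and HAK9 fell by at least 0.98.

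Metal transport genes gave 8 rises and 10 falls among 25, and 11 rises and 9 falls after median centring. The copper pump HMA5 rose by 1.31, and NRAMP2, of a family of iron and manganese carriers, and NAS3, which makes the chelator nicotianamine, fell by 1.83 and 1.47. Nitrogen genes split as 5 up and 6 down of 11, a majority that turned to 5 up and 4 down without replicate 2 of either temperature. Their median was −0.34, and 0.69 over all probe sets of these genes. The nitrate transporter NRT2.3 rose by at least 1.12 and the glutamate dehydrogenase GDH2 by 0.97, and the regulator NLP2 fell by at least 1.31. Of 9 phosphate genes 4 fell and 1 rose: PHR2, the regulator of phosphate starvation genes, rose by 0.67.

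Regulators of chromatin and small RNAs split as well. Among 25 chromatin and DNA methylation genes 8 rose and 9 fell, and after median centring 10 rose and 7 fell. EZ1, which writes the repressive methyl mark on histone H3, read 5.73, 5.91 and 5.68 at 25 °C and 7.01, 6.88 and 6.91 at 40 °C and rose by 1.16 (SE 0.12), and the histone demethylase JMJ705 rose by 1.29. Argonautes, dicers and RNA polymerases gave 8 rises and 8 falls of 19: AGO3 and DCL4 each rose by 1.11, and DRB1 and AGO4A fell by 1.01 and 0.80. Splicing genes fell in 7 of 14 cases, near the share over all genes, the cap-binding CBP20 by 0.85, and rose in 3, the splice site factor U2AF35A by 0.82 among them. C3H zinc finger proteins rose in 18 of 42 cases and fell in 13 (median 0.13), with OsC3H33 up by 1.69 and OsC3H53 down by 1.57.

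The clock gene GI, which links the circadian clock to flowering, read 6.25, 6.05 and 6.06 at 25 °C and 7.49, 7.45 and 7.63 at 40 °C and rose by 1.40 (SE 0.10), while of the other 6 clock genes PRR73 rose by 0.55, PCL1 fell by 0.24 and 4 did not pass. Proteases of the FtsH family gave 4 rises and 4 falls of 9, with FTSH6, known to respond to heat in Arabidopsis, up by at least 1.39. Tubby-like proteins gave 4 rises and 5 falls of 11, TULP2 up by 1.30, and with a filter at log2 6 the majority was 4 rises to 2 falls. The mitochondrial cytochrome b transcript cob was read on a probe set that may match related transcripts. At 4H cob read 4.32, 4.72 and 5.36 at 25 °C and 8.31, 8.00 and 8.08 at 40 °C, 3.33 higher (SE 0.20). At 0H it read 8.16 to 8.67 at 25 °C and 9.45 to 9.47 at 40 °C. It was thus already higher at 40 °C at 0H, by 1.07 (limma, adjusted p = 0.00215). At both temperatures its 4H arrays lay below its 0H arrays, and the gap was larger at 25 °C.

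Of 9 late embryogenesis abundant proteins and dehydrins, which protect dry cells, 4 fell, near the 48.4% over all genes, 0 rose, and none changed over 2-fold (median −0.14). After median centring 2 fell. LEA19 fell by 0.43 and RAB16D by 0.67, and Dhn1 read 9.03 and 9.11 and did not pass. Seed storage proteins and inhibitors fell in 8 of 11 cases (median −0.82), with OSE727A, a seed inhibitor, from 12.03, 12.03 and 11.93 to 11.31, 11.26 and 11.25. Without replicate 3 at 25 °C 4 of the 11 fell, and the glutelins GLUA2 and GLUB-5 (0.83 and 0.82 lower) did not pass.

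The same storage contrast was read at 0H on 6 other arrays, so the 4H and 0H differences share no array. At 0H 3129 probe sets (17.7%) passed, against 74.0% at 4H, and the median size of the difference was 0.18 at 0H and 0.61 at 4H. The 0H count was 5558 with array weights, 2080 without replicate 2 of 25 °C at 0H and 2079 without replicate 2 of 40 °C at 0H. Array controls separated the 0H groups: the 3′ minus 5′ signal averaged 2.24 and 3.66 for Gapdh and 2.44 and 3.33 for Actin at 25 °C and 40 °C, and 18S ribosomal RNA 11.77 and 9.67 (exact permutation test, p = 0.1 for each). Their part in the 0H and interaction results was not tested. Of the 13068 probe sets called at 4H, 2308 were also called at 0H and 10760 were not. The 2308 are a share near the 17.7% of all kept probe sets that passed at 0H. The test of the difference between the 4H and the 0H contrast passed in 11469 probe sets (65.0%), higher in 4957 and lower in 6512. Among probe sets that changed over 2-fold at 4H, 1080 rises and 1411 falls had a 0H difference under 0.2, 52.5% of them, against 54.9% of all kept probe sets.

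Levels in the 4 groups are given side by side as a description, since the gap at 4H follows from how these probe sets were chosen. Probe sets over 2-fold higher at 4H had median levels of 4.62 and 4.65 at 0H (25 °C and 40 °C) and of 5.14 and 6.78 at 4H. Those over 2-fold lower had medians of 5.65 and 5.57 at 0H and of 6.03 and 4.54 at 4H. LOG read 3.93 to 4.15 at 0H and 4.08 to 4.46 at 4H in the 25 °C arrays, and at 40 °C it read 4.44 to 4.76 at 0H and 6.57 to 6.87 at 4H. Its interaction was 1.80 (adjusted p = 2.63e-06), and it was also higher at 0H, by 0.61 (adjusted p = 0.0074).

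Genes that fell at 4H differed in how their levels stood to 0H. EXPB6, CYP85A1, IAA30 and the sucrose synthases were higher at 4H than at 0H at 25 °C, and at 40 °C they were near their 0H level or above it by less. IAA30, for example, read 4.37 to 5.19 in the 0H arrays of 25 °C, 4.78 to 4.85 in those of 40 °C, and 4.74 to 5.38 at 4H after 40 °C, all below its 4H arrays of 25 °C. SPO11-4, STT3-A, PAL and OSH1 had means at 4H after 25 °C within 1 log2 unit of their 0H means, and were lower at 4H after 40 °C than in any 0H array. STT3-A read 6.70 to 6.89 in the 0H arrays and 4.73 to 5.15 at 4H after 40 °C. EXPA29, WOX11 and YAB4 had means at 4H above their 0H means after 25 °C and below them after 40 °C. WOX11 averaged 5.85 and 5.98 at 0H, 8.21 at 4H after 25 °C and 4.58 at 4H after 40 °C.

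**Figure D5:**
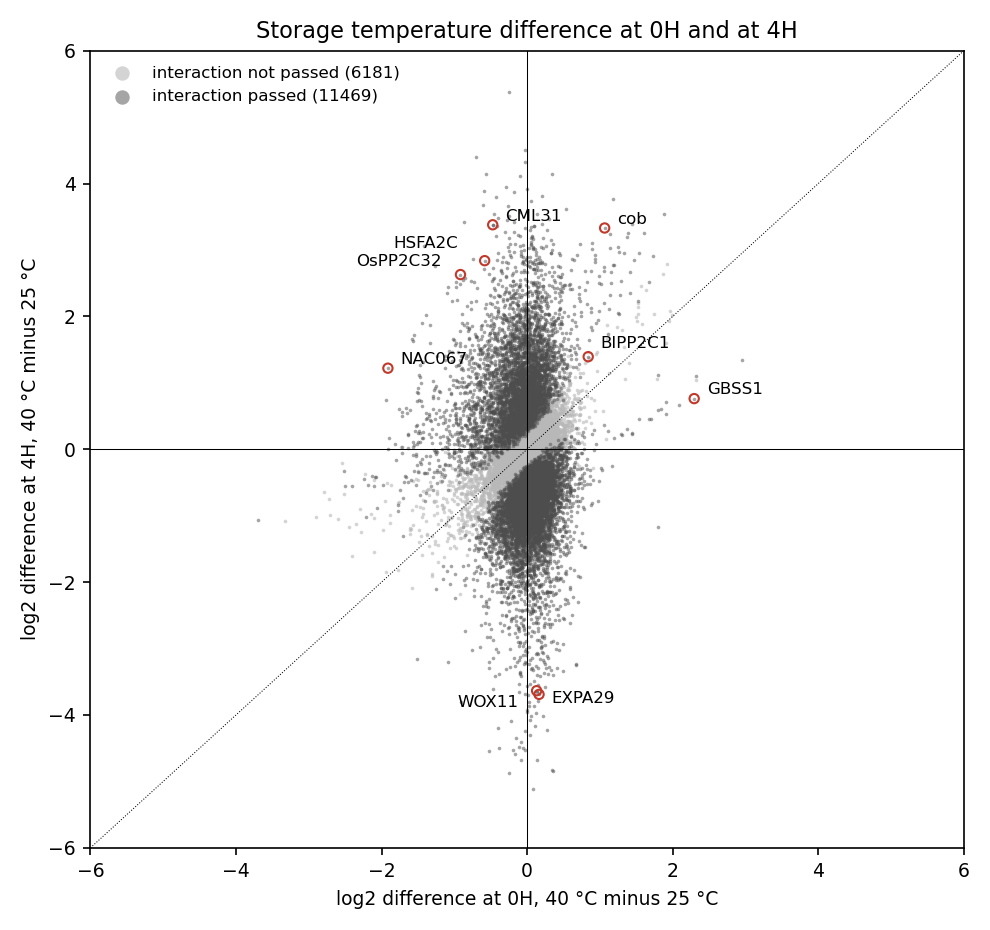
Each kept probe set is a point at its log2 difference between the temperatures (40 °C minus 25 °C) at 0H on the horizontal axis and at 4H on the vertical axis, and the dotted line marks equal differences. Dark points passed the test of the difference between both contrasts (11469), light points did not (6181). Most points spread along the vertical axis, where the difference at 4H is large and that at 0H is near 0. The points of NAC067, OsPP2C32 and HSFA2C lie below 0 at 0H and above 0 at 4H. The 4H difference of NAC067 did not pass, and a second probe set of HSFA2C fell at 4H.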

How the data were processed

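The deposited series matrix holds log2 signals of the Affymetrix Rice Genome Array. The authors made them with GCRMA, per the submitters' processing notes, and that the scale is log2 was read from the values. All 12 columns were matched to samples by the labels. The 123 control probe sets were left out, and a probe set was kept above log2 4 in at least 3 of 12 arrays. limma 3.58.1 in R 4.3.3 fitted 4 group means to the 12 arrays, with eBayes and a trend, 8 residual degrees of freedom, two-sided tests and Benjamini-Hochberg adjustment over 17650 probe sets at 0.05. The SE of a 4H difference therefore also holds the spread between the 0H arrays. Python 3.11.15, pandas 2.3.3, numpy 2.4.6 and matplotlib 3.10.9 made the summaries and figures, and the fit was tested on simulated data. Genes were named through the platform annotation and RefSeq (assembly ASM3414082v1, names only): 22436 probe sets had 1 gene, 95 had several and 34850 were unlisted. Of 17905 genes paired, 2444 had a short name. A gene was read by its probe set of highest mean.

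The genes named are the 25 largest rises and 25 largest falls among those called, with groups that did not overlap and a higher mean above log2 6, the 10 largest interactions each way, the 10 largest changes each way over 2-fold with a 0H change under 0.2, and in each list up to 6 members of lowest p and those against its majority. Members and lists were chosen with earlier results of these data known. The alternatives were other filters, quantile normalization, median centring, no trend, array weights, a replicate block, only both groups of a contrast, values below log2 4 set to 4, and leaving out each array. Same-numbered replicates at 4H had deviations from their group means that correlated at 0.0606, 0.163 and 0.213 across temperatures. Differently numbered ones correlated at −0.231 to 0.175. The main fit did not read the numbers as pairs, and counts with the replicate number as a block are given below. No sequence is printed, and promoters were not analysed here.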

Additional observations from a re-analysis of the deposited data

Results flagged for a closer look

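The storage difference at 4H was itself different from that at 0H in 11469 probe sets, by the interaction term of the limma fit. The values that follow are the 4H difference minus the 0H difference, on the log2 scale. The 10 largest on the higher side among the named genes were CML31 (3.85), OsPP2C32 (3.55), HSFA2C (3.42), FH16 (3.31), NAC067 (3.13), DREB1B (3.11), DREB1A (3.09), DREB2B (3.01), ABCG37 (2.93) and WRKY24 (2.79). CML31 and WRKY24 lay below log2 4 in all 0H arrays, and DREB1B had 0H means of 3.61 at 25 °C and 2.92 at 40 °C. The sizes of their interactions depend on such low signals. A second probe set of HSFA2C fell by 1.70 at 4H. In NAC067 the replicates of 25 °C at 0H spread widely, at 5.70, 3.27 and 2.19, against 1.84, 1.89 and 1.70 at 40 °C. Its 4H difference of 1.22 did not pass (limma, adjusted p = 0.0611), although its 4H arrays did not overlap between the temperatures. Its 0H difference was −1.91.

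The 10 largest on the lower side were EXPA29 (−3.85), WOX11 (−3.77), YAB4 (−3.37), EXPA2 (−3.33), CHLP (−3.26), CYP85A1 (−3.07), SUS1 (−3.04), PAL (−3.03), PSY1 (−3.001) and Sus2 (−2.98). EXPA2 lay below log2 4 in all 0H arrays, and YAB4, EXPA2, CHLP and PAL lay below it in all 4H arrays after 40 °C, where the size of a difference depends on signals under the filter limit.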

How the results depend on the processing

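At 4H the number of probe sets called was 12418 to 13267 when each array was left out in turn, and the number over 2-fold 4700 to 4963. The same ranges were 2079 to 3847 for the 0H contrast and 10889 to 11540 for the interaction. With a filter at log2 6, which tests fewer probe sets, 2906 were called over 2-fold in place of 4748. Setting values below log2 4 to 4 kept the same 17650 probe sets and called 3727 over 2-fold, 1851 higher and 1876 lower. With array weights 5558 were called at 0H in place of 3129, and the cause was not tested. With the replicate number as a block 13307 probe sets were called at 4H, 4764 over 2-fold, 3498 at 0H and 11734 for the interaction. Without replicate 3 at 25 °C, the array that stood apart, 12965 were called at 4H and 4963 over 2-fold.

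The 542 genes tested by name gave 11288 values under the alternatives: 11101 kept their direction and side of the threshold, 187 (in 50 genes) did not pass, and 0 reversed. These genes were chosen in the same data, by size of change, low p or direction. The choice itself favoured agreement, so the tally is no independent check of the directions. A gene that an alternative did not test, such as under a stricter filter, gave no value there and is not in the tally. The median difference of all kept probe sets was −0.16, −0.09 after quantile normalization and −0.07 after median centring, so small differences depend on the scaling. The majority direction turned under at least 1 alternative for the phosphatases 2C, chromatin, metal transport, nitrogen, glutaredoxin and Tubby lists. With all probe sets of a gene in place of 1, 10 of 73 list medians moved by more than the median SD of their genes over the 25 °C arrays, and those of the nitrogen and phosphatase 2C lists changed sign. The fit of only both groups could not give the interaction, and the planned promoter count was not run. Low signals and 3 arrays a group limit what could be detected.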

Other observations

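Several smaller gene groups moved in both directions at 4H. Of 4 SPL factors, which time developmental phases in plants, SPL9 rose by 1.14 and SPL15 fell by 1.26, 2 falling in all. Of 9 Rac/Rop and Ran GTPases, switches of polar growth and nuclear transport, 5 fell and 2 rose, and of 7 autophagy genes 4 fell and 1 rose, where 48.4% and 28.6% of all genes did. Beta-glucosidases fell in 5 of 9 cases and rose in 1. Of 8 photosynthesis and chlorophyll genes 4 fell and 1 rose, and their median level was 3.86 at 25 °C and 3.28 at 40 °C, below the filter limit of log2 4 at both temperatures.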
